A study of Mus musculus with 10 samples.

Results

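The matriptase and prostasin cascade of the skin was described through 8 genes, taken by symbol from the 23282 entries deposited for each library. St14 encodes matriptase, Prss8 prostasin, and Tmprss11f and Tmprss13 further membrane-anchored serine proteases. Spint1 and Spint2 encode their Kunitz-type inhibitors, F2rl1 the protease-activated receptor PAR2, and Htra1 a serine protease that is secreted rather than membrane-bound. The 10 libraries came from whole skin of mice aged 5 months on a C57BL/6 background, 5 from mice whose keratinocytes lacked STAT3 (STAT3cKO) and 5 from wild-type mice (WT). The sources used here do not give the Cre driver, the deleted exons, sex, litter, hair phase or batch, nor whether the WT mice carried a floxed Stat3 allele. Since separate mice per library are not stated either, the p-values reflect only the spread between libraries, part of which may be technical.

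Matriptase spans the membrane of epithelial cells and prostasin is held on it by a lipid anchor, and each can bring about activation of the other. In mouse epidermis both are required for profilaggrin processing and a tight barrier, and matriptase can start the kallikrein cascade that loosens cornified cells. The hepatocyte growth factor activator inhibitors HAI-1 (Spint1) and HAI-2 (Spint2) restrain both proteases. PAR2 is a G protein-coupled receptor of keratinocytes that trypsin-like proteases switch on by cutting its extracellular end.

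Promoters are shown for both inhibitors and for Tmprss11f, because the study removed a transcription factor and these 3 windows differ in base composition and in a motif that was searched. The sequences are RefSeq's on GRCm38.p6, in which 4 of the 8 genes (Spint1, Spint2, Tmprss11f and Htra1) matched, and each runs from 250 bases before the transcript start to 50 after it. Capitals mark the letters TGANTCA, the motif of AP-1 factors, read on both strands. The windows are chr2:119237110-119237409 on the plus strand for Spint1 and chr7:29281928-29282227 on the minus strand for Spint2. For Tmprss11f the window is chr5:86632375-86632674 on the minus strand. The Spint2 window lies wholly beyond the GENCODE end of that gene at 29281912, so RefSeq and GENCODE place its start differently.
Spint1: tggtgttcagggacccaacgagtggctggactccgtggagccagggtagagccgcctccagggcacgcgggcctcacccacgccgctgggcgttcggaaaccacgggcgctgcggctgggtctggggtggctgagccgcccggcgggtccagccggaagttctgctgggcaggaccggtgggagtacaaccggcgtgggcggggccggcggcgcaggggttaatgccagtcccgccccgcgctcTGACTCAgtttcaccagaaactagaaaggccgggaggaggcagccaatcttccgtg
Spint2: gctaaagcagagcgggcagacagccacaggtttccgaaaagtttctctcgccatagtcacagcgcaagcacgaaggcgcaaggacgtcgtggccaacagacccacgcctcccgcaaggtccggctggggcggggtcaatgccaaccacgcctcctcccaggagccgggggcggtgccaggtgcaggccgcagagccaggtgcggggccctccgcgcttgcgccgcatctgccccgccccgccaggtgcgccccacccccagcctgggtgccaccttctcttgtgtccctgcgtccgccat
Tmprss11f: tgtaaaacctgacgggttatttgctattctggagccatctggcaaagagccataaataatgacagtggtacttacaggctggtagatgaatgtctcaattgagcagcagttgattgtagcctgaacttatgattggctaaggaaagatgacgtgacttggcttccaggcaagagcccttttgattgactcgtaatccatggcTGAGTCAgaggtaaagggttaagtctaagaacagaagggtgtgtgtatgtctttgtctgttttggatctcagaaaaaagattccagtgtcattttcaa

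The Spint1 and Spint2 windows were rich in G and C (69.7% and 69.3%) with 28 and 26 CpG dinucleotides, whereas the Tmprss11f window had 42.0% and 3. The median of all 32851 windows in the table was 52.7% and 7. The AP-1 letters stood in 2 of the 4 matched windows, once in Spint1, from 6 bases before the start, and once in Tmprss11f, from 48 bases before it. Of all windows 7.81% held them. The letters TTCNNNGAA, a STAT motif that reads the same on both strands, were in 0 of the 4 and in 8.30% of all windows. A match or its absence in these letters describes the window and says nothing of whether a factor binds.

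The values are log2 of scaled reads per gene with a pseudocount near 1. The Lexogen QuantSeq kit reads the 3′ ends of transcripts, so that levels do not follow transcript length. The estimated depth was 7190000 to 18400000 reads, with 4 deeper libraries (STAT3cKO 4 and 5, WT 1 and 2) and 6 shallower ones, so both groups held both kinds. STAT3cKO 2 stood apart: 2617 of the 11536 tested genes had no read in it, against 83 to 1273 in the other 9 libraries, of which WT 3 had the most. It was also the library with Ddx3y at 10.6 and Xist at 0.06, whereas in the others Xist lay between 8.65 and 11.01 and Ddx3y did not exceed 1.26. Ddx3y lies on the Y chromosome and Xist marks female cells, so STAT3cKO 2 had a male pattern and the other 9 libraries a female one. STAT3cKO thus mixed the sexes where WT did not, and the part of sex in the results was not tested. Stat3 itself had 10.1 ± 0.48 in STAT3cKO and 9.72 ± 0.56 in WT (SD, n = 5 each), which checks nothing about the ablation in whole skin, since other cells express it and 3′ reads can come from a transcript without the deleted exons.

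The comparison of STAT3cKO with WT skin asks whether keratinocyte STAT3 loss goes with a change in this cascade. Of the 8 genes 0 rose and 0 fell at an adjusted p under 0.05 (limma, Benjamini-Hochberg over all 11536 tested genes), where 0.529% of all tested genes rose and 0.459% fell, 0.988% together. At an unadjusted p under 0.05 there were 2 of the 8, F2rl1 and Htra1, where 10.9% of all tested genes lay. F2rl1 was the 1 gene of the 8 whose groups did not overlap, with STAT3cKO higher, as in 1.71% of all tested genes, and 0 of the 8 were lower without overlap, as 1.72% were. The change was positive for 5 of the 8, with a median of 0.84, beside 43.8% positive and a median of −0.16 over all tested genes. In bulk skin, more cells of a type and more RNA per cell cannot be told apart.

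**Figure D1:**
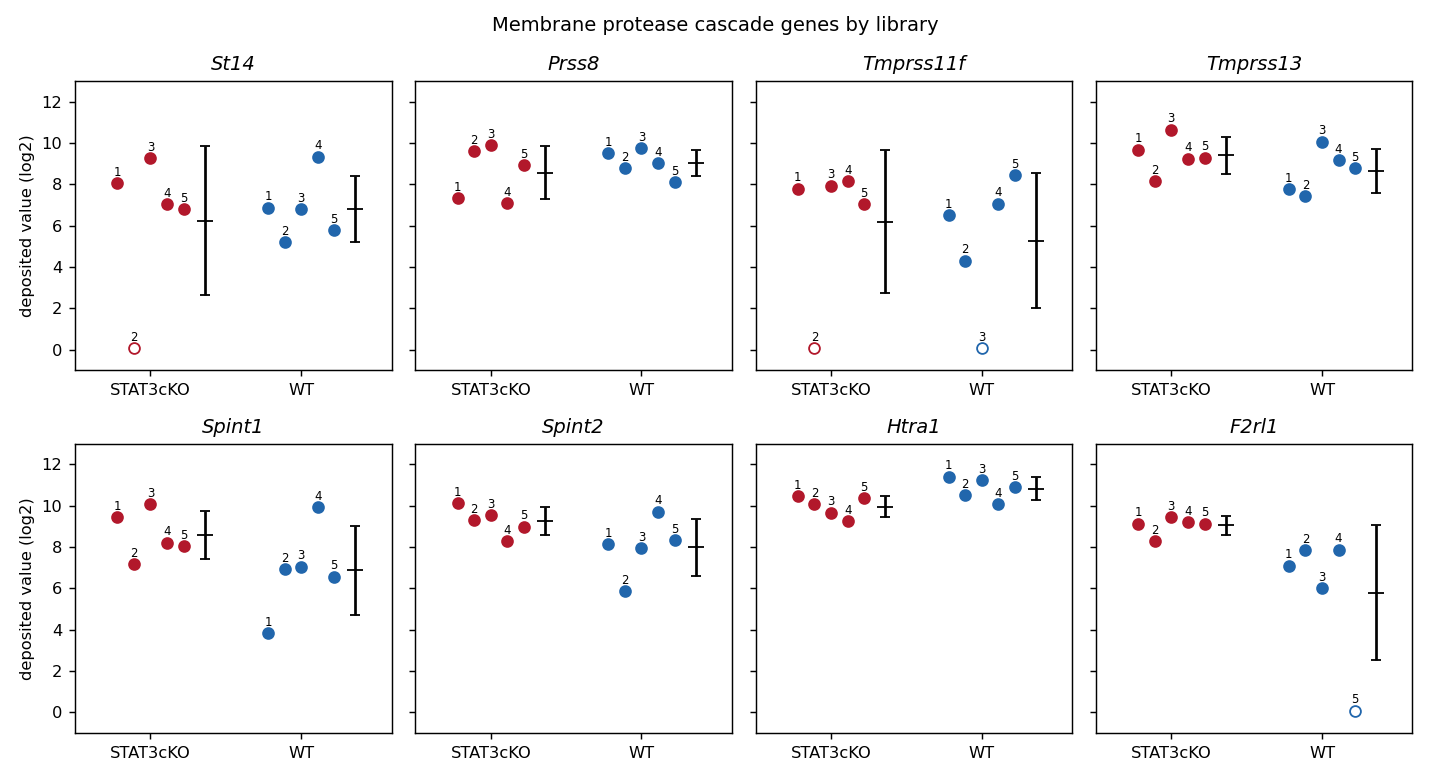
Deposited log2 value of each gene (vertical axis) in every library, STAT3cKO left and WT right, with the replicate number above each point, an open point where the library had no read, and a bar for mean ± SD (n = 5). F2rl1 is the gene whose 5 STAT3cKO points (8.29 to 9.44) all lie above the WT points (0.08 to 7.88).

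St14, the gene of matriptase (ENSMUSG00000031995, mm10 chromosome 9, 31089402 to 31131853, minus strand), had values of 8.07, 0.06, 9.27, 7.05 and 6.79 in STAT3cKO 1 to 5. In WT 1 to 5 it had 6.88, 5.18, 6.80, 9.35 and 5.79. The groups overlapped throughout: STAT3cKO 3 and WT 4 were nearly equal and high, and STAT3cKO 2, the library with most genes lacking reads, had no St14 read where the other 9 libraries had an estimated 36 to 570. The change was −0.55 with an SE of 1.62 and an interval at 95% of −3.97 to 2.86 (limma adjusted p = 0.922), and its sign turned without STAT3cKO 2, to 0.996 (limma adjusted p = 0.692), and without WT 4, to 0.09 (limma adjusted p = 0.991). It was 0.89 in the deeper libraries (limma adjusted p = 0.798) and −1.51 in the shallower ones (limma adjusted p = 0.89), which include STAT3cKO 2. The interval is wide enough to hold a large rise or a large fall, so these libraries do not show that matriptase mRNA was alike in the 2 groups.

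Prss8, the gene of prostasin (ENSMUSG00000030800, chromosome 7, 127925716 to 127930104, minus strand), had 7.32, 9.61, 9.90, 7.09 and 8.91 in STAT3cKO 1 to 5 and 9.50, 8.79, 9.74, 9.04 and 8.10 in WT 1 to 5. STAT3cKO 1 and 4 lay below every WT library, and the other 3 lay within or above the WT range. The means were 8.57 ± 1.30 in STAT3cKO and 9.03 ± 0.64 in WT (SD, n = 5 each). The difference of −0.47 had an SE of 0.58 and an interval at 95% of −1.69 to 0.75 (limma adjusted p = 0.789). With 1 library left out it ranged from −0.80 without STAT3cKO 3 to −0.10 without STAT3cKO 4, and it was −0.15 without STAT3cKO 1. It was −1.14 in the deeper libraries (limma adjusted p = 0.571) and −0.02 in the shallower ones (limma adjusted p = 0.998). An exon of Prss8 overlaps one of Kat8, an acetyltransferase gene of the opposite strand. No source used here states strand-specific counting, so reads from the overlap cannot be assigned to 1 of the 2 genes. Kat8 had 6.77 to 8.75 in STAT3cKO and 7.33 to 8.94 in WT. Its share in the Prss8 value was not tested.

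Tmprss11f, a protease of stratified epithelium (ENSMUSG00000048764, chromosome 5, 86521898 to 86632424, minus strand), had 7.80, 0.06, 7.94, 8.15 and 7.04 in STAT3cKO 1 to 5. It had 6.53, 4.31, 0.06, 7.06 and 8.44 in WT 1 to 5. The 2 libraries without a read, STAT3cKO 2 and WT 3, were those with most tested genes lacking reads, and the rest overlapped. The change was 0.92 (SE 1.92, limma adjusted p = 0.881), 2.45 without STAT3cKO 2 and −0.39 without WT 3, the 1 library whose removal turned its sign. It was 2.18 in the deeper libraries (limma adjusted p = 0.557) and 0.08 in the shallower ones (limma adjusted p = 0.997).

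Tmprss13, whose loss in mice impairs the cornified layer (ENSMUSG00000037129, chromosome 9, 45319100 to 45347581, plus strand), had reads in all 10 libraries, with 9.68, 8.17, 10.6, 9.24 and 9.29 in STAT3cKO 1 to 5. In WT 1 to 5 the values were 7.78, 7.43, 10.1, 9.18 and 8.78. WT 3 was above 4 of the 5 STAT3cKO libraries and STAT3cKO 2 was below 3 of the WT ones, so the groups overlapped. The change was 0.76 with an SE of 0.55 and an interval at 95% of −0.39 to 1.91 (limma adjusted p = 0.631), 1.66 in the deeper libraries (limma adjusted p = 0.253) and 0.16 in the shallower ones (limma adjusted p = 0.983). It was 0.45 without STAT3cKO 3 and also without WT 2. A gene annotated antisense to Tmprss13, 1700003G13Rik, was at 0 in all 10 libraries.

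Spint1, the gene of HAI-1 (ENSMUSG00000027315, chromosome 2, 119237362 to 119249527, plus strand), had 9.46, 7.17, 10.1, 8.22 and 8.04 in STAT3cKO 1 to 5 and 3.84, 6.93, 7.05, 9.94 and 6.56 in WT 1 to 5. Every STAT3cKO library was above 4 of the 5 WT libraries, and WT 4 was exceeded by STAT3cKO 3 alone. WT 1, a deep library, had an estimated 20 reads where STAT3cKO 4, also deep, had 400. The means were 8.59 ± 1.16 in STAT3cKO and 6.87 ± 2.17 in WT (SD, n = 5 each). The difference of 1.73 had an SE of 0.99 and an interval at 95% of −0.36 to 3.82 (limma adjusted p = 0.547). It was 0.97 without WT 1 (limma adjusted p = 0.743), 2.74 in the deeper libraries (limma adjusted p = 0.41) and 1.05 in the shallower ones (limma adjusted p = 0.826).

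Spint2, the gene of HAI-2 (ENSMUSG00000074227, chromosome 7, 29256323 to 29281912, minus strand), had 10.1, 9.30, 9.55, 8.30 and 8.99 in STAT3cKO 1 to 5. It had 8.15, 5.87, 7.95, 9.71 and 8.32 in WT 1 to 5. Again WT 4 was the WT library within the upper STAT3cKO range, while WT 2 was the lowest of all. The change was 1.25 with an SE of 0.62 and an interval at 95% of −0.04 to 2.55 (limma adjusted p = 0.477), and 0.72 without WT 2 (limma adjusted p = 0.713). In the deeper libraries it was 1.64 (limma adjusted p = 0.506) and in the shallower ones 0.998 (limma adjusted p = 0.815). The intervals of both inhibitors included 0 and reached up to rises of 3.82 for Spint1 and 2.55 for Spint2.

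F2rl1, the gene of PAR2 (ENSMUSG00000021678, chromosome 13, 95511732 to 95525227, minus strand), had 9.13, 8.29, 9.44, 9.22 and 9.13 in STAT3cKO 1 to 5. It had 7.10, 7.85, 6.02, 7.88 and 0.08 in WT 1 to 5. All STAT3cKO values lay above all WT values, and the STAT3cKO libraries were close together. WT 5 had no read of F2rl1. It had the lowest estimated depth of the libraries (7190000 reads), with 983 tested genes lacking reads. The means were 9.04 ± 0.44 in STAT3cKO and 5.79 ± 3.28 in WT (SD, n = 5 each). The difference of 3.26 had an SE of 1.27 and an interval at 95%, not adjusted for the other genes, of 0.58 to 5.93 (limma adjusted p = 0.334). The exact 2-sided permutation test over all ways to assign 5 of the 10 libraries gave p = 0.00794, the smallest it can give with 5 libraries against 5, and this single-gene p is not adjusted for the other genes. The size of the change leaned on WT 5: without it the change was 1.83 (limma adjusted p = 0.223). The 4 deeper libraries gave 1.70 (limma adjusted p = 0.278), and the 6 shallower ones, with WT 5 included, gave 4.30 (limma adjusted p = 0.815).

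Htra1, a secreted trypsin-like protease that cuts matrix proteins (ENSMUSG00000006205, chromosome 7, 130936111 to 130985660, plus strand), had 10.5, 10.1, 9.67, 9.24 and 10.3 in STAT3cKO 1 to 5. The WT 1 to 5 values were 11.4, 10.5, 11.2, 10.1 and 10.9. It was the most abundant of the 8 genes in 9 of the 10 libraries, the other being STAT3cKO 3. Of the WT libraries 4 lay above every STAT3cKO library, and WT 4 lay within the STAT3cKO range. The means were 9.96 ± 0.51 in STAT3cKO and 10.8 ± 0.55 in WT (SD, n = 5 each). The difference of −0.86 had an SE of 0.35 and an unadjusted interval at 95% of −1.59 to −0.13 (limma adjusted p = 0.358). The exact 2-sided permutation test gave p = 0.0397, again not adjusted for the other genes. Apart from F2rl1 and Htra1, the same permutation test gave p from 0.111 (Spint2) to 0.833 (St14) in the cascade genes. In the deeper libraries the change was −1.16 (limma adjusted p = 0.381) and in the shallower ones −0.66 (limma adjusted p = 0.826).

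**Figure D2:**
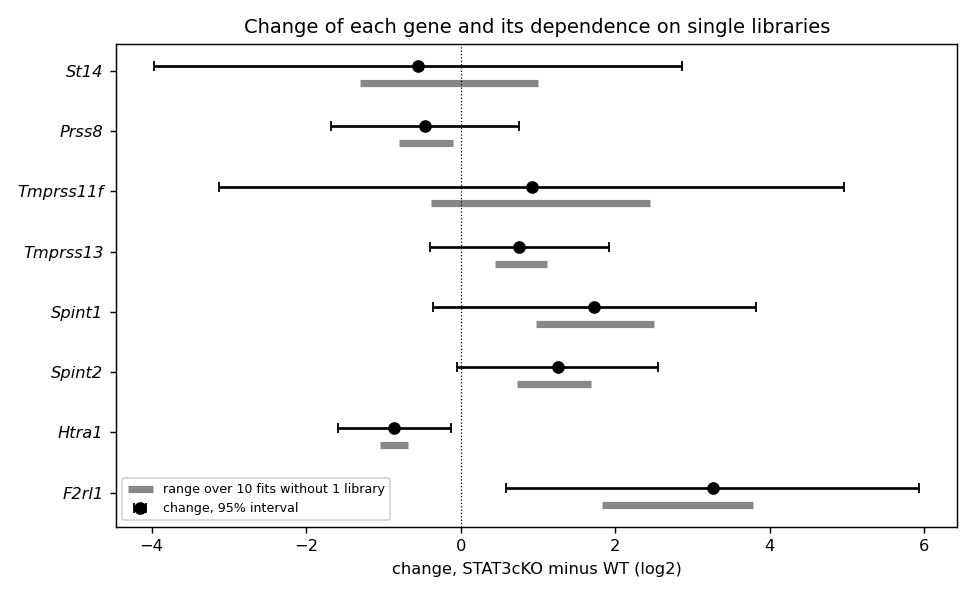
Change of each gene (horizontal axis, STAT3cKO minus WT, log2) with its 95% limma interval in black, and in grey the range over 10 fits that each left out 1 library. The grey range crosses 0 for St14 and Tmprss11f and stays above 0 for F2rl1 (1.83 to 3.78) and below 0 for Htra1 (−1.05 to −0.68).

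The difference between a protease and an inhibitor transcript within a library was also described, with no test. Inhibition works by one protein binding another, but protein was not measured, and transcript differences need not follow the balance of proteins. The Prss8 values may also hold reads of Kat8. Prss8 minus Spint1 was −2.14, 2.44, −0.18, −1.13 and 0.88 in STAT3cKO 1 to 5 and 5.66, 1.86, 2.69, −0.91 and 1.53 in WT 1 to 5. Prss8 thus exceeded Spint1 in 2 of 5 STAT3cKO and 4 of 5 WT libraries, with medians of −0.18 and 1.86. Prss8 minus Spint2 had a median of −0.08 in STAT3cKO (range −2.80 to 0.35) and 1.35 in WT (range −0.67 to 2.92). The ranges overlapped for both inhibitors, with WT 4 at or near the low end of WT in each.

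St14 was below Spint2 in every library and below Spint1 in 9 of 10. St14 minus Spint1 had a median of −1.25 in STAT3cKO (range −7.11 to −0.80) and −0.60 in WT (range −1.75 to 3.04). The exception was WT 1, where Spint1 was low, and the lowest value was that of STAT3cKO 2, where St14 had no read.

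**Figure D3:**
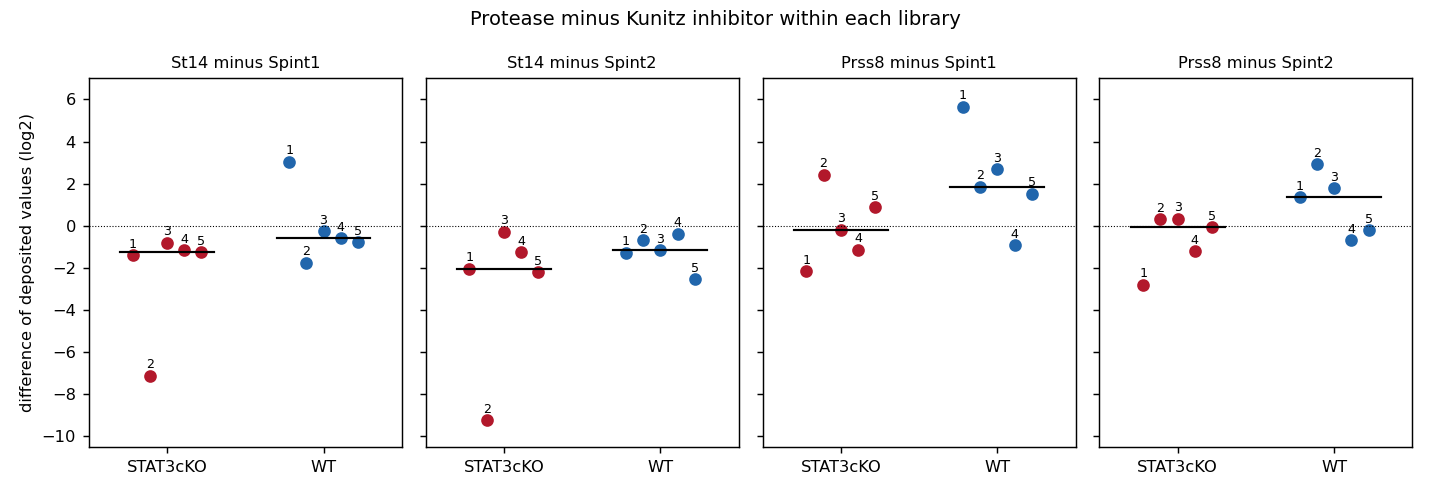
Difference of deposited log2 values between a protease and a Kunitz inhibitor gene in each library (vertical axis), STAT3cKO left and WT right, with replicate numbers and a line at the group median. The medians of Prss8 minus Spint1 were −0.18 in STAT3cKO and 1.86 in WT, with overlapping points.

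Within each group, St14, Spint1 and F2rl1 were highest in the library in which transcripts of growing hair were most abundant. The summed level of 15 hair shaft and inner root sheath genes was 15.6, 1.62, 18.9, 1.27 and 15.3 on a log2 scale in STAT3cKO 1 to 5 and 8.26, 7.56, 11.9, 19.0 and 9.64 in WT 1 to 5. Between 0 and 14 of the 15 had no read in a library: 14 in STAT3cKO 2, 13 in STAT3cKO 4 and 14 in WT 1. St14, Spint1 and F2rl1 had their highest values in each group in STAT3cKO 3 and WT 4, the libraries with the highest hair sum in each group, while Prss8 was highest in STAT3cKO 3 and WT 3, and Htra1 in STAT3cKO 1 and WT 1. For F2rl1 the lead within WT was small, with 7.88 in WT 4 and 7.85 in WT 2, whose hair sum was 7.56. STAT3cKO 2 and 4, with the lowest hair sums, had F2rl1 at 8.29 and 9.22, above every WT library. Below the top library St14 and Spint1 did not follow the hair sum throughout. STAT3cKO 4 (hair sum 1.27) had 7.05 and 8.22, above STAT3cKO 5 (15.3) with 6.79 and 8.04, whereas STAT3cKO 2 (1.62) was lowest of its group in both. The part of hair growth in the values was not tested, and the libraries were not regrouped by it.

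**Figure D4:**
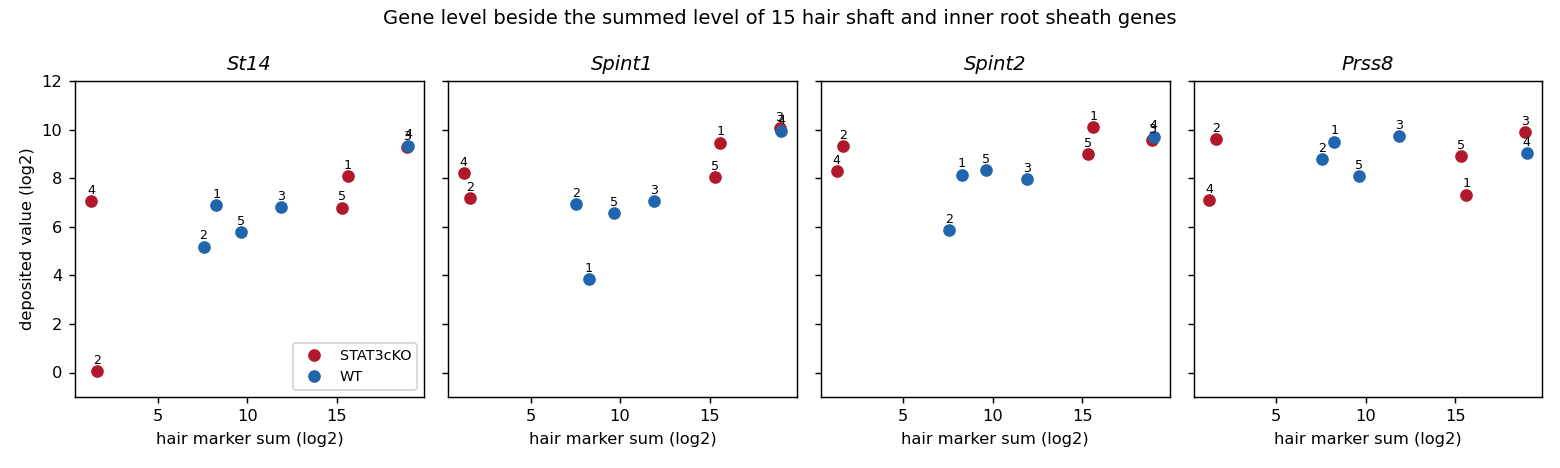
Deposited log2 value of 4 genes (vertical axis) against the log2 summed level of 15 hair shaft and inner root sheath genes (horizontal axis) in STAT3cKO and WT libraries, with replicate numbers. St14 and Spint1 reach 9.27 to 10.1 in STAT3cKO 3 and WT 4, at hair sums of 18.9 and 19.0, while Prss8 lies at 9.90 and 9.04 there.

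Keratinocyte marker levels also differed between the groups in their medians, with overlap. All 9 tested suprabasal and all 8 basal genes had a positive change, of which 0 passed. The summed level of 9 suprabasal keratinocyte genes was 16.9 to 17.8 in STAT3cKO and 14.9 to 17.1 in WT, and that of 8 basal genes was 14.5 to 15.9 in STAT3cKO and 13.3 to 15.1 in WT, with 0 of the basal genes lacking reads anywhere. Adipocyte genes ran the other way, with summed levels of 15.3 to 17.9 in STAT3cKO and 16.8 to 19.3 in WT over 10 genes, of which 1, Car3, fell (change −3.06, limma adjusted p = 0.0209). The summed level of 8 sebocyte genes was the 1 of 9 cell type lists whose groups did not overlap, at 13.2 to 14.5 in STAT3cKO and 11.9 to 13.1 in WT. Of its 7 tested genes 2 rose, the lipid synthesis genes Elovl3 (change 4.31, limma adjusted p = 0.00355) and Soat1 (change 3.10, limma adjusted p = 0.00167), and 3 had a negative change. When each library was centred on its basal keratinocyte genes, an alternative chosen after seeing the data, the changes were 2.74 for F2rl1, 1.21 for Spint1 and 0.74 for Spint2 (limma adjusted p = 0.388, 0.596 and 0.624). Centred on suprabasal genes, which moved the median of all tested genes to −1.60, they were 1.82, 0.29 and −0.19 (limma adjusted p = 0.268, 0.849 and 0.865). Each centring moves the changes of all genes by the same amount. Relative to the median of all tested genes they were 3.42, 1.89 and 1.41 in the main fit and under both centrings. Fibroblasts are a source of Htra1 in skin, and their genes summed to 14.2 to 16.8 in STAT3cKO and 15.6 to 15.7 in WT. Of the 10 tested, 5 had a positive change, and the median was −0.09. Dpt of the dermal matrix, the 1 that passed, fell (change −1.53, limma adjusted p = 0.0287). These called markers were named after their values were seen. The part of these cell types in the results was not tested.

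Related genes were read from lists by role. Of 20 other membrane-anchored serine proteases 4 were tested and 0 passed, with 3 changes positive and a median of 2.05. Of those not tested 5 had no read in any library. Tmprss4, a protease of several epithelia, averaged 10.3 ± 0.84 in STAT3cKO and 8.71 ± 1.39 in WT (SD, n = 5 each), a change of 1.57 (limma adjusted p = 0.322). It passed in 2 alternatives, with array weights (2.31, limma adjusted p = 0.0107) and in the deeper libraries (2.75, limma adjusted p = 0.0171), and was 0.79 in the shallower ones (limma adjusted p = 0.839). Tmprss11e, a relative of Tmprss11f, had no read in 1 STAT3cKO and 3 WT libraries (change 3.12, limma adjusted p = 0.611). Of 10 further inhibitors 4 were tested and 0 passed, with 1 change positive, that of Serpine2, and a median of −1.96. Serpine2, a serpin that inhibits prostasin, had a change of 0.90 (SE 0.54, limma adjusted p = 0.564), 0.47 without STAT3cKO 5 and 0.50 without WT 1. Serpina1a, 1 of a family of near-identical copies and therefore uncertain, had one of −2.35 (limma adjusted p = 0.667), and −1.17 without STAT3cKO 4 or without STAT3cKO 5.

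Of 14 substrates and downstream targets 9 were tested, 1 rose and 0 fell, with 8 of 9 changes positive and a median of 1.11. The riser was Klk5, a kallikrein that matriptase can activate, at 10.8 ± 0.61 in STAT3cKO and 8.88 ± 0.64 in WT (SD, n = 5 each), a change of 1.92 (SE 0.39, limma adjusted p = 0.0223). In the kallikrein list, which shares Klk5, 7 of 11 were tested, 2 rose, 0 fell and all 7 changes were positive, with a median of 1.92. The other riser was Klk10, at 11.8 ± 0.54 in STAT3cKO and 9.88 ± 0.56 in WT (SD, n = 5 each; change 1.97, SE 0.34, limma adjusted p = 0.00622). The call of Klk5 was lost without STAT3cKO 1, WT 1 or WT 2 (limma adjusted p up to 0.0892), while that of Klk10 held with any 1 library left out (limma adjusted p up to 0.0274). Neither passed without trend and robust estimation (limma adjusted p = 0.172 for Klk5 and 0.133 for Klk10), in the deeper libraries (2.16 and 2.32, limma adjusted p = 0.0507 and 0.0502) or in the shallower ones (1.76 and 1.73, limma adjusted p = 0.366 and 0.21). Klk5 also missed with the replicate number as a block (limma adjusted p = 0.0964) and without both STAT3cKO 2 and WT 3 (limma adjusted p = 0.0502). Centred on basal keratinocyte genes, which moved the median of all tested genes to −0.68, the changes were 1.40 for Klk5 and 1.45 for Klk10 (limma adjusted p = 0.225 and 0.189). Centred on suprabasal genes they were 0.48 and 0.53 (limma adjusted p = 0.558 and 0.49). Each centring moved the changes of all tested genes by the same amount. Klk5 stands in the study's title and is no independent evidence of a direction.

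Around the receptor, 8 of 13 PAR family and PAR2 signalling genes were tested and 0 passed, with 4 changes positive and a median of 0.14. Gnai2, a G protein alpha subunit, averaged 10.1 ± 0.67 in STAT3cKO and 11.2 ± 0.61 in WT (SD, n = 5 each), a change of −1.17 (limma adjusted p = 0.172). Arrb1, the receptor adaptor beta-arrestin, stood at a change of −0.77 (limma adjusted p = 0.559), or −0.46 without STAT3cKO 3. Around Htra1, 9 of 12 HTRA proteases and substrates were tested and 0 passed, with 2 changes positive and a median of −0.15. Dcn, decorin of the dermal matrix, had 14.4 ± 0.71 in STAT3cKO and 15.3 ± 0.58 in WT (SD, n = 5 each), a change of −0.89 (limma adjusted p = 0.322), and Ltbp1, which holds latent TGF-beta in the matrix, one of −1.43 (limma adjusted p = 0.596), and −0.42 without STAT3cKO 2.

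**Figure D5:**
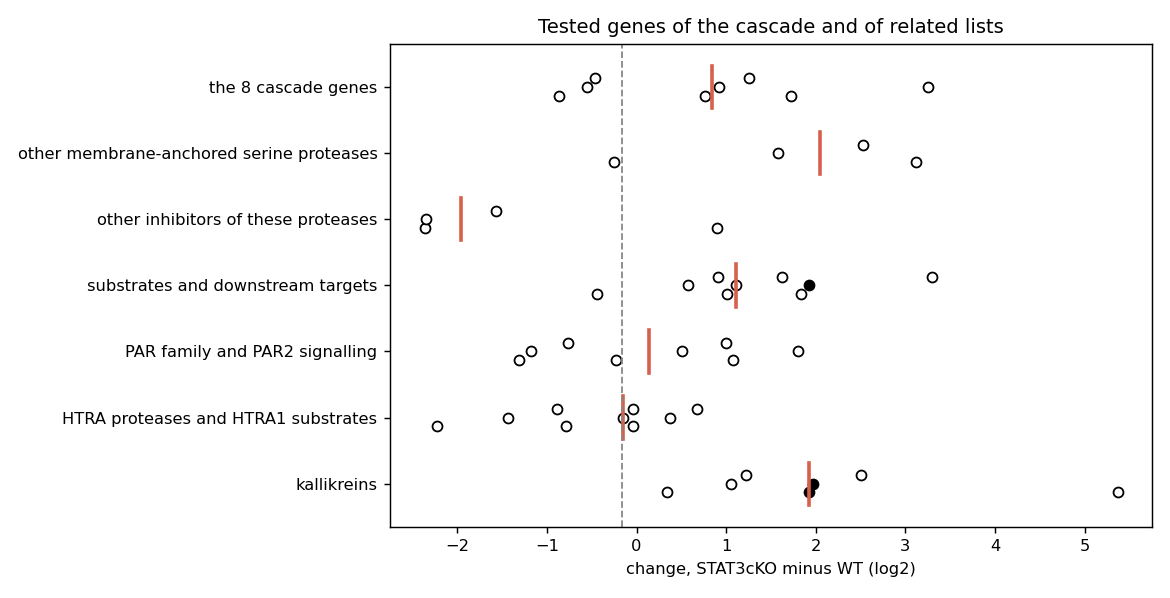
Change of each tested gene (horizontal axis, STAT3cKO minus WT, log2) in the 8 cascade genes and 6 related lists, filled where the adjusted p was under 0.05, with a red bar at the list median and a dashed line at the median of all tested genes (−0.16). The filled points are Klk5, which stands in 2 lists, and Klk10.

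The genes most like St14 over the 10 libraries, by Pearson's r after each group's mean was removed, were Ttyh2, Rab15, Ank, Hist1h4n and Snrnp25, with r of 0.953 to 0.974. Histone genes such as Hist1h4n have near-identical copies. Of the 5, 2 had no read in STAT3cKO 2, as St14 did, and without that library r was 0.808 to 0.888. Those most like Prss8 were Rpusd2, Ephb2, Tceal3, Fars2 and Ino80, with r of 0.916 to 0.955. Of these, Rpusd2, Ephb2 and Tceal3 had no read in 3, 2 and 2 libraries, so their r leans on values without a read. Among the cascade genes St14 was most like Tmprss11f (r = 0.684) and Tmprss13 (r = 0.679). Without STAT3cKO 2 it was most like Spint2 (r = 0.799) and Spint1 (r = 0.637), and r with Tmprss11f was 0.151. Between St14 and Prss8 r was −0.19 over 10 libraries and 0.38 over the 9. These values are picked from 11536 genes over 10 points that share library depth and quality, and describe likeness only.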

How the data were processed

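RNA of whole mouse skin was extracted with Trizol and sequenced from 3′ ends with Lexogen QuantSeq, per the labels' protocols. The authors deposited 1 table of values per library, processed with Bowtie2 and bedtools against mm10, per the submitters' processing notes. The sources used here do not name the annotation, strand use, scaling or duplicate handling. The deposited values behave as log2 of scaled reads plus a pseudocount near 1: low values lay at steps of 1 read (89.9 to 100% whole within 0.15 of a read, up to 20 reads), which gave the depths, and values below 0.5 of a read were taken as no read. Intervals cover the spread between libraries.

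Entries with a value of at least 5 in at least 5 of 10 libraries were tested (11536, including all 8 cascade genes; repeated symbols kept, the earlier used). limma 3.58.1 in R 4.3.3 was fitted to all of them (group as the term, mean trend, robust moderation), since the values are logged and scaled rather than counts. Errors of means are SDs and those of changes standard errors. Each of the 8 cascade genes also had an exact permutation test, not adjusted for the other genes.

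The 8 genes and the lists were chosen with earlier results of these data known. From each list the text names up to 4 called genes, or the 2 of lowest p, and for St14 and Prss8 the 5 most alike, predicted genes left out. Flg was not analysed here. Positions are GENCODE M 21 on mm10. Same-numbered STAT3cKO and WT libraries did not deviate together. Alternatives changed the filter, scaling, pseudocount, variance model, block and libraries. Figures used matplotlib 3.10.9 in Python 3.11.15.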

Additional observations from a re-analysis of the deposited data

Results flagged for a closer look

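In groups of 5 libraries, 4 values of the cascade genes stood apart by Dixon's criterion, out of 16 groups looked at. Chance alone gives about 1 in 20 for independent, normally distributed values. These groups share libraries and hold values without a read, so that rate cannot tell whether the flags exceed chance. St14 had 0.063 and Tmprss11f had 0.063 in STAT3cKO 2, where the other STAT3cKO libraries had at least 6.79 and 7.04. F2rl1 had 8.29 in STAT3cKO 2, where the others had 9.13 to 9.44, and 0.079 in WT 5, where the other WT libraries had 6.02 to 7.88. Among the other named genes Tmprss11e had 0.063 in STAT3cKO 2, where the others had at least 6.97. STAT3cKO 2 had no read in 2617 tested genes, more than any other library, and alone showed the male pattern of Ddx3y and Xist. The part of missing reads and of sex in these values was not tested.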

How the results depend on the processing

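In the 24 alternatives (23 for St14, which a filter of at least 7 removed) Prss8, Spint1, Htra1 and F2rl1 kept the sign of their change. F2rl1 passed in 1 of them, with CPM values and a pseudocount of 10 (1.61, limma adjusted p = 0.0448; over its alternatives 0.0448 to 0.815), and Htra1 in 1, centred on suprabasal keratinocyte genes (−2.30, limma adjusted p = 0.00485; over its alternatives 0.00485 to 0.826). That centring moved the median of all genes to −1.60, and relative to the median Htra1 changed by −0.70. Gnai2, Arrb1, Dcn and Ltbp1 also passed under it (limma adjusted p = 0.00119, 0.019, 0.00212 and 0.0247). The other 6 genes passed in none of theirs. The change of St14 was 0.39 after quantile normalization, 0.11 and 0.23 on the CPM scale with pseudocounts of 1 and 10, 0.84 with array weights, 0.89 in the deeper libraries and 0.995 without STAT3cKO 2 and WT 3. Its range was −1.31 to 0.996 with 1 library left out, and that of Tmprss11f −0.39 to 2.45. Centred on suprabasal genes, Tmprss11f was −0.52, Tmprss13 −0.68, Spint2 −0.19 and Serpine2 −0.54. Relative to the median of all genes, Tmprss11f, Tmprss13 and Spint2 stayed at 1.08, 0.92 and 1.41, as in the main fit. Serpine2 was −0.00333 in the shallower libraries and Ltbp1 0.09 in the deeper ones. The causes were not tested.

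Of all tested genes 114 passed, and 61 to 207 with 1 library left out. The number was 176 with quantile normalization (95 higher, 81 lower), 175 and 263 on the CPM scale with pseudocounts of 1 and 10 (108 and 165 higher), 44 without trend and robust estimation (13 higher), 375 with array weights, 174 in the deeper and 16 in the shallower libraries, and 2513 centred on suprabasal genes (16 higher). The main split was 61 higher and 53 lower. With the replicate number as a block 66 passed, 0 of the 8 genes among them. Same-numbered libraries had correlations of −0.155 to 0.0159 in their deviations, and 0 of 5 were most like their own number. No pairing by number was seen, and a weak one could be hidden by other differences between libraries. A gene without reads in STAT3cKO 2, WT 3 or WT 5 is weak evidence of absence.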
